A study of Mus musculus with 6 samples.

Results

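Cytosolic nucleic acid sensing was followed through a set of 10 genes in cultured mouse macrophages, with Tmem175 knockout cells set against wild type cells. The set holds the DNA sensor Cgas, its adaptor Tmem173 (now named Sting1), the RNA sensors Ddx58 (now Rigi) and Ifih1, their adaptor Mavs, the kinases Tbk1 and Ikbke, the transcription factors Irf3 and Irf7, and the exonuclease Trex1. These genes were listed by name for their role in the pathway, and each was matched to its Ensembl gene by its current or earlier symbol. All 10 were found among the 55421 genes of the deposited count table. Trex1 had a count of 0 in every library. The other 9 passed the filter on low counts and were among the 13588 genes tested.

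The macrophages were primary cells grown from bone marrow. The KO group carried Tmem175flox/flox alleles with Lyz2-Cre+/-, and its genotype label reads Tmem175-/-; the WT group carried WT alleles. Lyz2-Cre expresses the recombinase from the lysozyme gene of myeloid cells. None of the 6 libraries came from cells with Cre alone or floxed alleles alone, so loss of Tmem175 cannot be told apart from an effect of Cre or of background. Each group had 3 libraries. The study text names wells and no animals, so any p-value here speaks of variation between wells, which could be purely technical. The labels name no stimulus. Tmem175 itself stood at 14.3, 13.2 and 12.1 CPM in KO libraries, against 32.8, 33.4 and 33.2 CPM in WT libraries. CPM is a gene's count for every 1000000 counts of the library, given here after scaling by TMM, a method that evens out differences in library composition. Library totals ran from 25979430 to 31542741 counts in KO and from 24179548 to 25916709 counts in WT libraries.

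As background, cytosolic DNA is bound by cGAS, which makes the cyclic dinucleotide cGAMP. STING, the product of Tmem173, binds cGAMP on the endoplasmic reticulum, moves through the Golgi and recruits TBK1; lysosomes later degrade it. RIG-I, the product of Ddx58, and MDA5, the product of Ifih1, bind viral RNA and signal through MAVS on mitochondria. Both arms end on the kinases TBK1 and IKKε, which phosphorylate IRF3 and IRF7, and these switch on type I interferon genes. Interferon in turn raises Irf7, Ddx58 and Ifih1, and Cgas and Tmem173 can be induced by it too, so that these members are also targets of the pathway.

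Interferon acts on its targets through a DNA element whose core can be written GAAANNGAA. This core was searched on both strands in RefSeq promoters of GRCm38.p6, each running from 250 bases before to 50 after a gene's start. It was found in 8.56% of 32851 promoters. Of the 9 members read, with Tmem173 left out, Ifih1 and Ddx58 held it. Their promoters are shown because they hold the core. That of Irf7, which holds no match, is shown because Irf7 varied together with interferon-induced genes from library to library, as did Ifih1 and Ddx58. Irf7 was chosen for this after its values had been seen. Capitals mark matches to the core, on either strand, and each line reads 5′ to 3′ along the gene, all 3 of which lie on the minus strand.
Ifih1, chr2:62646206-62646505: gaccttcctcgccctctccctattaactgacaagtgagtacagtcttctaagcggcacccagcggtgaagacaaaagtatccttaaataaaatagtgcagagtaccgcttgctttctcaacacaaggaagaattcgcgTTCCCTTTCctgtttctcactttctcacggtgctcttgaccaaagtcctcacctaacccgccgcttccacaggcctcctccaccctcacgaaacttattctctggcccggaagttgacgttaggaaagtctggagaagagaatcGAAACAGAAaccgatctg
Ddx58, chr4:40239776-40240075: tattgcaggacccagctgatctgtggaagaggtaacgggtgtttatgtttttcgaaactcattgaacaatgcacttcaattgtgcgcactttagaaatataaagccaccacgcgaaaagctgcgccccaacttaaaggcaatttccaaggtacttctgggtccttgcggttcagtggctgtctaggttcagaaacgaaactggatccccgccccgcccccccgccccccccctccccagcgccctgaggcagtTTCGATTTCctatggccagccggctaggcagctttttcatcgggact
Irf7, chr7:141266375-141266674: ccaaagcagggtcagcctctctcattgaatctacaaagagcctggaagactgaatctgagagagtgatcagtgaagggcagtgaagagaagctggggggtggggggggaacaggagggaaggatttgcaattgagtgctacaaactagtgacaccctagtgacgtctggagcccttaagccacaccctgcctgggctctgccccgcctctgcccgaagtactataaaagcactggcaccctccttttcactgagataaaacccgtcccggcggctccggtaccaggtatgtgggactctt

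The Ifih1 window held a match beginning 112 bases upstream of the start, on the other strand, and another beginning at base 33 of the transcript. The Ddx58 window held 1, beginning at base 4 of the transcript, on the other strand. A match is a description of the letters and not a site shown to be bound. No match in the Irf7 window says only that these letters are absent from these 300 bases. Of the 7 readout genes of interferon with a promoter in the table, 5 held the core.

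No member of the pathway was called different between KO and WT macrophages. At an adjusted p under 0.05 in edgeR's quasi-likelihood test, 0 of the 9 members passed, against 0.103% of all 13588 genes tested. The smallest adjusted p of a member was 0.971, that of Ifih1. None had an unadjusted p under 0.05, against 5.44% of all genes, and none was called by the DESeq2 test or by limma-voom. For none of the 9 did the KO and WT libraries stand apart in CPM, against 10.8% of all genes. By sign, 3 members lay above and 6 below WT, with a median log2 fold change of -0.03; over all genes the median was -0.001.

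**Figure D1:**
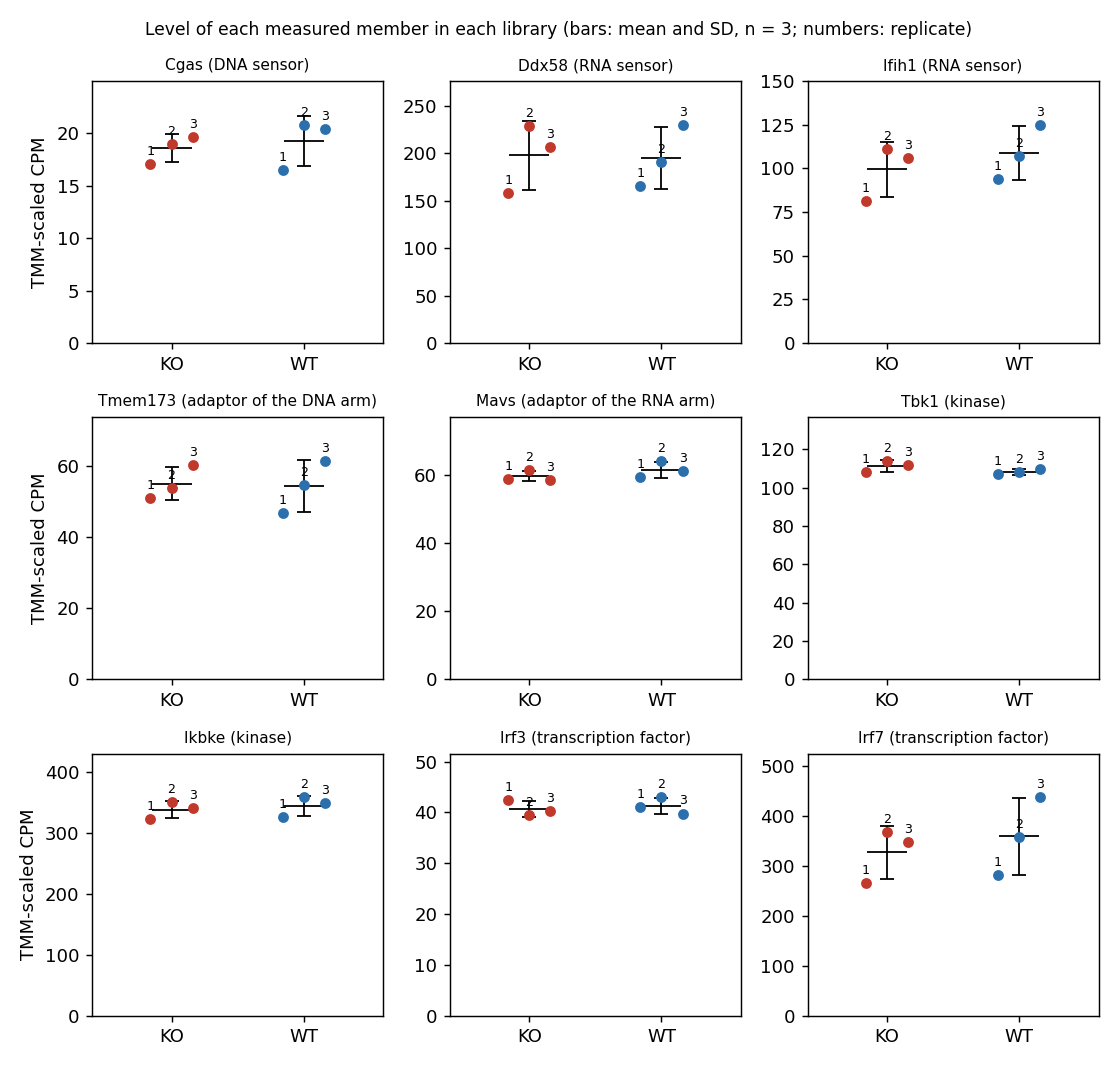
TMM-scaled CPM (vertical axis, from 0) of the 9 measured members in 3 KO and 3 WT libraries; points are libraries with their replicate number, bars are mean and SD. In every panel the KO and WT points overlap, and replicate 1 of either group lies low for Irf7, Ddx58 and Ifih1.

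**Figure D2:**
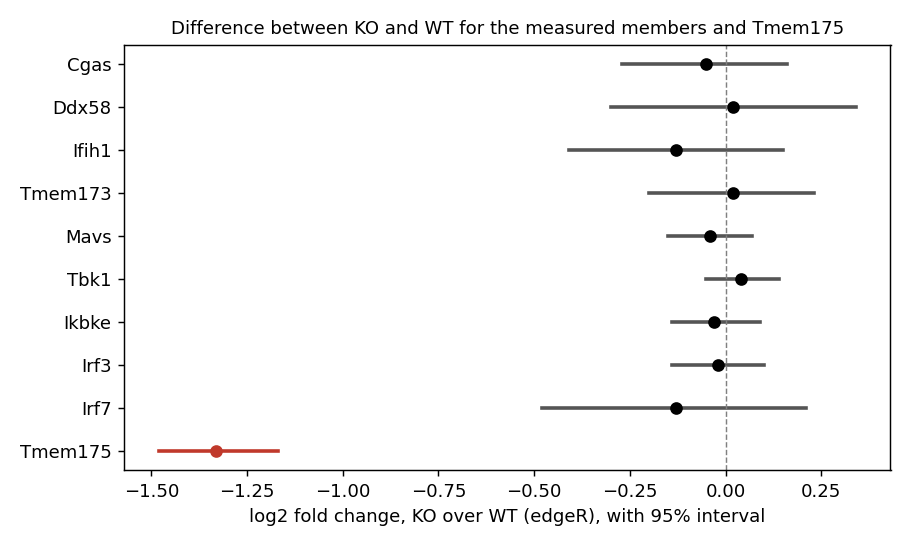
Log2 fold change of KO over WT from edgeR with its 95% interval for the 9 measured members and, in red, for Tmem175. All 9 member intervals include 0, and the widest are those of Irf7, from -0.48 to 0.21, and Ddx58, from -0.30 to 0.34.

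Among the sensors, Cgas (chromosome 9, 78430526 to 78443237), which makes cGAMP on binding DNA, had the lowest level of the measured members. It stood at 17.1, 19.0 and 19.6 CPM in KO libraries, against 16.5, 20.8 and 20.4 CPM in WT libraries. Replicate 1 was the lowest of its group in both genotypes. The log2 fold change of KO over WT was -0.05 (SE 0.10, adjusted p = 0.979, edgeR), with a 95% interval from 0.83-fold to 1.12-fold. Ddx58 (chromosome 4, 40203773 to 40239828), the sensor of RNA with a 5′ triphosphate, stood at 158, 229 and 207 CPM in KO libraries, against 165, 191 and 230 CPM in WT libraries. The spread within either group was far wider than the gap between the means of 198 ± 36.5 CPM in KO and 195 ± 32.9 CPM in WT (SD, n = 3 each). Its log2 fold change came to 0.02 (SE 0.14, adjusted p = 0.991), and the interval ran from 0.81-fold to 1.27-fold. Ifih1 (chromosome 2, 62595798 to 62646255), the sensor of long RNA duplexes, stood at 81.5, 111 and 106 CPM in KO libraries, against 94.2, 107 and 125 CPM in WT libraries. KO replicate 1 was the lowest and WT replicate 3 the highest of the 6. On the log2 scale the fold change was -0.13 (SE 0.12, adjusted p = 0.971), with an interval from 0.75-fold to 1.11-fold. It was -0.001 without KO replicate 1 and -0.01 without WT replicate 3.

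The adaptors lay close to each other in level. Tmem173 (chromosome 18, 35733679 to 35740554), the gene of STING, stood at 51.1, 53.9 and 60.3 CPM in KO libraries, against 46.9, 54.8 and 61.5 CPM in WT libraries. The 3 WT values enclosed the 3 KO values. On the log2 scale the fold change was 0.02 (SE 0.10, adjusted p = 0.989, edgeR), with an interval from 0.87-fold to 1.17-fold. Mavs (chromosome 2, 131234063 to 131248025), the mitochondrial adaptor of the RNA sensors, was among the steadiest members. It stood at 59.0, 61.6 and 58.7 CPM in KO libraries, against 59.4, 64.2 and 61.2 CPM in WT libraries. Its log2 fold change came to -0.04 (SE 0.05, adjusted p = 0.973), and the interval from 0.90-fold to 1.05-fold leaves room only for small differences between these KO and WT wells.

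The kinases were both well expressed and varied little. Tbk1 (chromosome 10, 121546455 to 121586787), which phosphorylates the adaptors and the IRFs, stood at 108, 114 and 112 CPM in KO libraries, against 107, 108 and 110 CPM in WT libraries. KO replicate 1 lay among the WT values. On the log2 scale the fold change was 0.04 (SE 0.04, adjusted p = 0.972, edgeR), with an interval from 0.96-fold to 1.10-fold, among the narrowest of the set. Ikbke (chromosome 1, 131254343 to 131279606), the gene of the related kinase IKKε, stood at 323, 350 and 340 CPM in KO libraries, against 326, 358 and 348 CPM in WT libraries. The groups lay over each other, and KO over WT came to -0.03 on the log2 scale (SE 0.05, adjusted p = 0.979), with an interval from 0.91-fold to 1.07-fold.

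The transcription factors differed in how much they varied. Irf3 (chromosome 7, 44997648 to 45002848), which is held ready in the cytosol and activated by phosphorylation, stood at 42.4, 39.5 and 40.2 CPM in KO libraries, against 41.0, 43.0 and 39.8 CPM in WT libraries. On the log2 scale KO over WT came to -0.02 (SE 0.05, adjusted p = 0.979, edgeR), with an interval from 0.91-fold to 1.07-fold. Irf7 (chromosome 7, 141262706 to 141266481), which interferon induces and which then widens the interferon response, stood at 266, 367 and 347 CPM in KO libraries, against 282, 357 and 437 CPM in WT libraries. Replicate 1 was the lowest of either group, and WT replicate 3 was the highest of all 6. The means were 327 ± 53.5 CPM in KO and 359 ± 77.6 CPM in WT (SD, n = 3 each). KO over WT came to -0.13 on the log2 scale (SE 0.15, adjusted p = 0.973, edgeR), with an interval from 0.72-fold to 1.16-fold. It was -0.003 without KO replicate 1, 0.03 without WT replicate 3 and -0.28 without WT replicate 1.

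Trex1 (chromosome 9, 109057933 to 109059734), the exonuclease that clears cytosolic DNA and so limits cGAS, could not be measured from this table. Its count was 0 in all 3 KO and all 3 WT libraries. All 1147 bases of its exons also lie in exons of Atrip, a gene of the DNA damage response on the same strand, so the annotation gives a read there both gene names. Of 141 protein-coding genes whose exons lie wholly within those of other genes on the same strand, 131 had a count of 0 in all 6 libraries, or 92.9%. The same held for 34 of 34 genes covered wholly by genes on the opposite strand. Among 15537 genes that share no exon base it held for 32.5%. How the counting treated shared reads is not given in the sources used here, and a 0 for Trex1 is no measure of its level. Atrip stood at 12.2, 11.4 and 13.4 CPM in KO libraries, against 13.1, 12.9 and 13 CPM in WT libraries. Of the other members, Cgas shares 4.87% of its exon bases with Gm8093, Irf3 2.56% with Bcl2l12 and Irf7 1.19% with Phrf1, all on the opposite strand. Ikbke shares 0.721% with Gm28913 and 1.76% with Gm28914, also on the opposite strand. Without the strand, reads of such stretches cannot be told apart.

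Levels of different genes can be compared only per length, and TPM was used for this: a gene's count over the summed length of its exons, scaled so that each library sums to 1000000. Irf7 had the highest TPM, from 217 to 330 over the 6 libraries, more than 96.4% of the genes tested. Ikbke followed with 105 to 125 TPM, then Tbk1 with 79.9 to 94.1 TPM and Ddx58 with 68.2 to 104 TPM. The ranges of Tbk1 and Ddx58 overlap, so by this length these neighbours do not differ beyond their spread. Tmem173 with 49.9 to 68.1 TPM and Mavs with 51.7 to 59.2 TPM overlap likewise, as do Ifih1 with 30.7 to 43.7 TPM and Irf3 with 33.0 to 37.9 TPM. Cgas was lowest, at 11.7 to 14.8 TPM. With the longest protein-coding transcript as the length, a choice made after the data had been seen, Irf7, Ikbke, Tmem173 and Cgas kept their places, Ddx58 came before Tbk1, and Irf3 moved to place 6 before Mavs and Ifih1. By that length Ddx58, at 90.4 to 137 TPM, and Tbk1, at 75.9 to 87.7 TPM, did not overlap. The level of Ikbke moved most, to 215 to 249 TPM; its exons sum to 9018 bases and its longest coding transcript has 3251. TPM is not corrected for library composition: for Tbk1, 84.7, 94.1 and 89.0 TPM in KO libraries stood apart from 79.9, 81.4 and 80.0 TPM in WT libraries, while its scaled CPM overlapped.

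**Figure D3:**
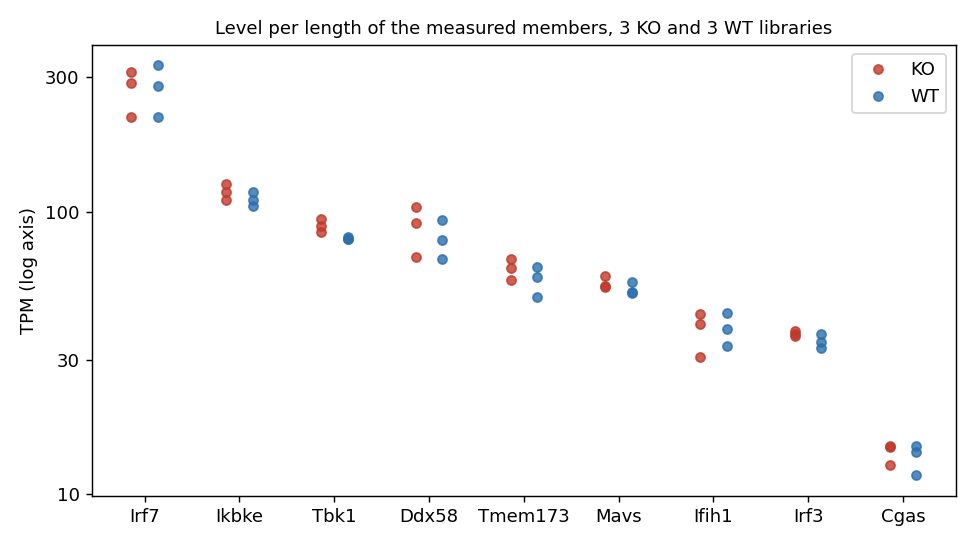
TPM on a log axis of the 9 measured members, ordered from the highest to the lowest mean; red points are 3 KO and blue points 3 WT libraries. Irf7 lies above all others, Cgas below, and KO and WT points of a gene lie close together.

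The members differed in how much they varied over the 6 libraries. The ratio of the highest to the lowest of the 6 libraries was 1.64 for Irf7, 1.53 for Ifih1 and 1.46 for Ddx58. Over the 8249 genes that averaged 10 CPM or more, this ratio had a median of 1.15, and 97.9%, 97.0% and 95.8% of them had a smaller one than Irf7, Ifih1 and Ddx58, in that order. Tmem173 at 1.31 and Cgas at 1.26 lay between, while Ikbke at 1.11, Irf3 and Mavs at 1.09 each and Tbk1 at 1.07 lay below the median.

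Interferon-induced genes outside the set followed the same order of libraries. Their list, with Isg15, Rsad2 and Mx1 among its 13 genes, had a mean deviation from the 6-library mean of -0.39, 0.14 and 0.10 in KO replicates 1 to 3, and of -0.21, 0.04 and 0.34 in WT replicates 1 to 3 (log2 CPM). KO replicate 1 was the lowest library for 13 of the 13, against 16.4% of all genes tested, and WT replicate 3 the highest for 12 of the 13, against 18.4%. Irf7 deviated by -0.34, 0.12 and 0.04 in KO and by -0.26, 0.08 and 0.37 in WT libraries, close to the list in each. Ddx58 deviated by -0.30, 0.24 and 0.09 in KO and by -0.24, -0.03 and 0.24 in WT libraries, above the list in KO replicate 2 and below it in WT replicate 3. Ifih1 deviated by -0.34, 0.10 and 0.04 in KO and by -0.13, 0.05 and 0.28 in WT libraries. Tmem173 followed the order in part, at -0.09, -0.02 and 0.14 in KO and -0.22, 0.01 and 0.17 in WT libraries. Cgas, at -0.14, 0.01 and 0.06 in KO and -0.19, 0.14 and 0.11 in WT libraries, was likewise low in both replicate 1 libraries. Ikbke was also lowest in replicate 1 of either group, by less, at -0.08 in KO and -0.06 in WT libraries. Irf3 stayed between -0.05 and 0.07 and did not follow this order. The mean of 10 macrophage markers stayed between -0.05 and 0.06 over the same libraries, but this mean holds markers that moved in opposite directions. Csf1r was at 3768, 4518 and 4388 CPM in KO libraries, against 3814, 3778 and 4600 CPM in WT libraries. Mertk was at 157, 128 and 133 CPM in KO libraries, against 170, 161 and 142 CPM in WT libraries. Whether the order of libraries is particular to interferon-induced genes was not tested. The labels give no batch for this order of the libraries, and its cause was not tested.

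**Figure D4:**
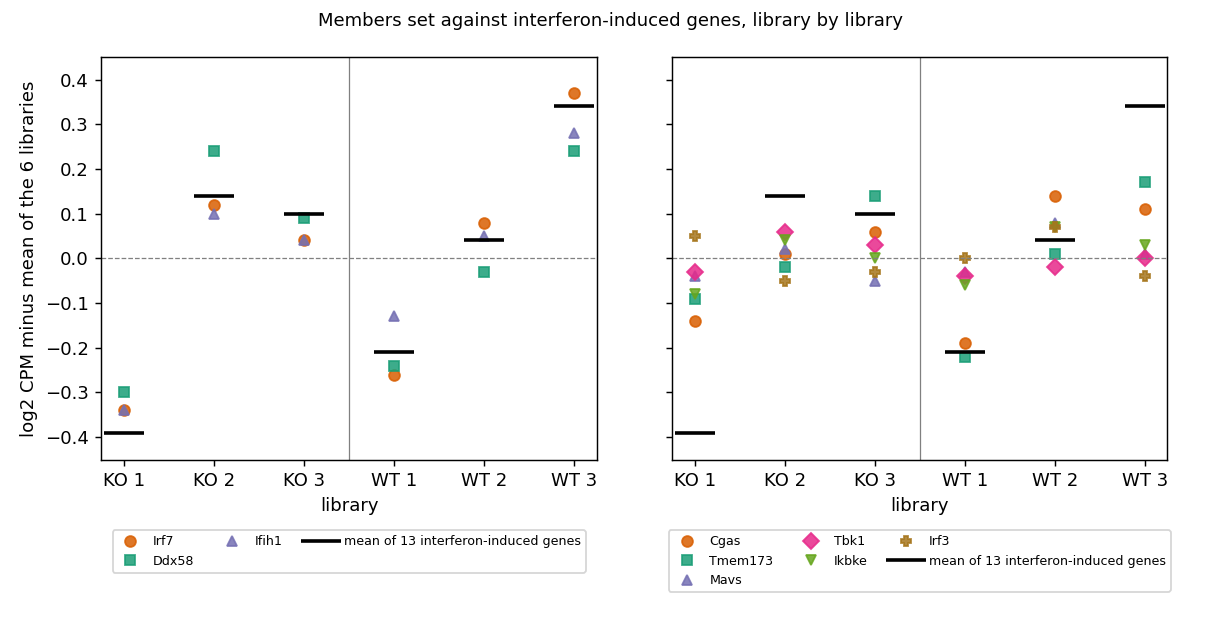
Log2 CPM of each member minus its mean over 6 libraries (vertical axis), by library, with Irf7, Ddx58 and Ifih1 on the left and the other 6 measured members on the right; black dashes are the mean of 13 interferon-induced genes. The left-hand members track the dashes from -0.39 in KO replicate 1 to 0.34 in WT replicate 3, while on the right Tmem173 and Cgas follow in part, from -0.22 to 0.17, and the other members stay nearer 0.

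Ratios between members of like role were taken within each library, which removes what a pair shares. The ratio of Ddx58 to Ifih1 in TPM was 2.24, 2.39 and 2.26 in KO libraries, against 2.03, 2.07 and 2.13 in WT libraries. All 3 KO values lay above all 3 WT values, with a log2 difference of 0.15. In an exact two-sided permutation test the p was 0.1, the smallest that 3 against 3 libraries allow, and 0.4 when adjusted over the 4 ratios tested, so the difference did not pass. Leaving out any 1 library gave 0.12 to 0.17. Ikbke to Tbk1 was 1.30, 1.33 and 1.31 in KO libraries, against 1.32, 1.44 and 1.38 in WT libraries, and the groups overlapped (exact permutation p = 0.2, adjusted 0.4). Irf7 to Irf3 was 5.72, 8.47 and 7.87 in KO libraries, against 6.26, 7.57 and 10 in WT libraries (exact permutation p = 0.8, adjusted 0.8). Tmem173 to Mavs was 1.06, 1.07 and 1.25 in KO libraries, against 0.96, 1.04 and 1.23 in WT libraries (exact permutation p = 0.5, adjusted 0.667).

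**Figure D5:**
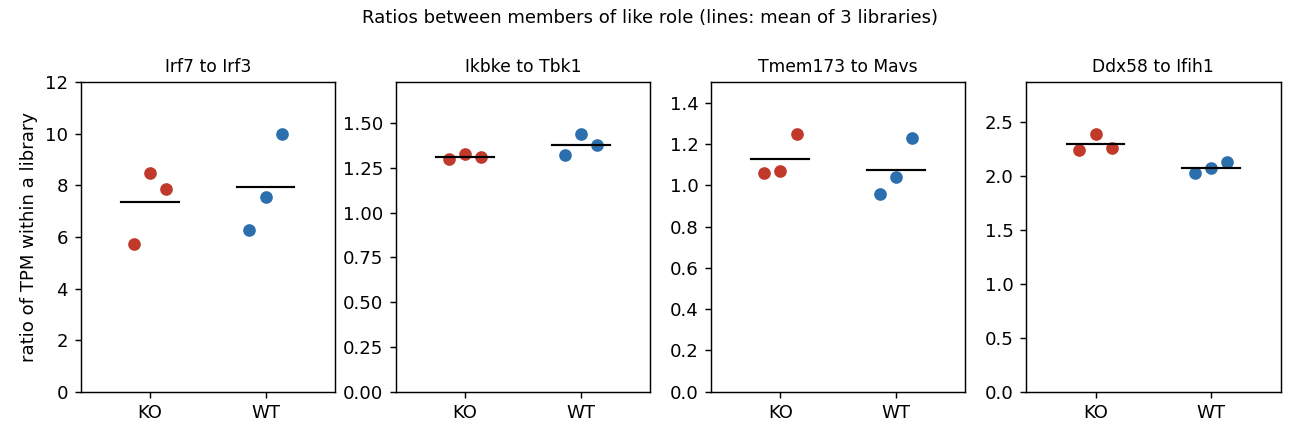
Ratio of TPM between members of like role (vertical axes, from 0) in 3 KO and 3 WT libraries; points are libraries and lines are means. The ratio of Ddx58 to Ifih1 lies at 2.24 to 2.39 in KO and at 2.03 to 2.13 in WT libraries, and the other 3 ratios overlap.

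Genes that act around the members were read from 9 lists in the same edgeR fit, and none of their 112 tested genes was called. The DESeq2 test and limma-voom likewise called 0 of them. An unadjusted p under 0.05 was reached by 4, or 3.57%, and 10, or 8.93%, had KO and WT libraries that stood apart, both shares below those over all genes. By sign, 33 were above and 79 below WT, with a median log2 fold change of -0.04, against 6743 above and 6845 below over all genes. Scaling by library totals moved the median of all genes by a like amount, to 0.042. Genes that share an order of libraries do not count separately, and no tally by sign here or below was tested. Of the 3 genes with the smallest p of each list, those reported are named whether or not they passed.

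On the DNA arm, 11 of 12 other DNA sensors lay below WT, with a median log2 fold change of -0.06. Ifi204, a DNA-binding protein of the p200 family, averaged 239 ± 22.8 CPM in KO and 270 ± 24.5 CPM in WT libraries, and Ifi207 of the same family 285 ± 19.3 CPM in KO and 305 ± 4.79 CPM in WT libraries (SD, n = 3 each). The Ifi200 genes are closely related copies of each other, so their counts are uncertain. Dhx36, a helicase, was at 39.7, 40.7 and 39.8 CPM in KO libraries, against 44.1, 43.1 and 41.2 CPM in WT libraries, without overlap (log2 fold change -0.09, adjusted p = 0.94, edgeR). Nucleases and carriers of cGAMP split by sign, with 6 above and 8 below WT. Enpp1, the enzyme that hydrolyses cGAMP outside cells, averaged 29.7 ± 3.30 CPM in KO and 33.6 ± 4.81 CPM in WT libraries, and Slc19a1, a cGAMP importer, 8.76 ± 0.747 CPM in KO and 9.95 ± 0.328 CPM in WT libraries. Dnase1l3, a secreted DNase, was low, at 0.766 ± 0.119 CPM in KO and 1.11 ± 0.41 CPM in WT libraries. Of 14 genes of STING traffic, 8 were above and 6 below WT. They include Npc1, the lysosomal cholesterol carrier that recruits STING for degradation, at 380 ± 19.9 CPM in KO and 361 ± 10.6 CPM in WT libraries. Rhbdf2, which stabilises STING, was at 73.2, 75.4 and 77.9 CPM in KO libraries, against 78.2, 79.2 and 82.9 CPM in WT libraries. Its groups only just stood apart (log2 fold change -0.09, adjusted p = 0.95, edgeR). Stim1, which holds STING at the endoplasmic reticulum, had a log2 fold change of -0.06.

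On the RNA arm, partners of the sensors and of Mavs split into 6 above and 9 below WT. Prkra, which binds RNA duplexes and activates PKR, was at 29.6, 28.8 and 29.9 CPM in KO libraries, against 26.5, 27.1 and 27.0 CPM in WT libraries. The KO values all lay above the WT values, yet the log2 fold change of 0.13 (SE 0.05) did not pass (adjusted p = 0.887, edgeR). Itch, a ubiquitin ligase that marks MAVS for degradation, was at 106, 96.1 and 100 CPM in KO libraries, against 109, 107 and 107 CPM in WT libraries. Its groups only just stood apart (log2 fold change -0.10, adjusted p = 0.932, edgeR). Tradd, an adaptor, had a log2 fold change of -0.09. Of 11 antiviral effectors that bind RNA, 9 were below WT, and 0 stood apart. Ifit3 averaged 211 ± 40.5 CPM in KO and 244 ± 44.3 CPM in WT libraries, and Oas2, an oligoadenylate synthetase, 125 ± 19.0 CPM in KO and 111 ± 7.16 CPM in WT libraries. Among adaptors of TBK1 and the NF-kB kinases the smallest p belonged to Rela, Map3k7 and Tab2, with log2 fold changes of -0.06, -0.05 and 0.04. Tab2, a subunit of the TAK1 complex, was at 175, 174 and 180 CPM in KO libraries, against 171, 172 and 173 CPM in WT libraries. Its groups only just stood apart (adjusted p = 0.973, edgeR).

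The list of the endosomal arm, whose receptors read nucleic acids in endosomes, held the smallest p among the 9 lists, that of a transporter. Slc15a3, a lysosomal transporter of histidine and of bacterial peptides, was at 353, 306 and 310 CPM in KO libraries, against 378, 405 and 355 CPM in WT libraries. The groups only just stood apart. KO over WT came to -0.23 on the log2 scale (SE 0.07, adjusted p = 0.734, edgeR), so Slc15a3 did not pass. Tlr9, the receptor of unmethylated DNA, was at 164, 169 and 166 CPM in KO libraries, against 174, 182 and 207 CPM in WT libraries (log2 fold change -0.17, SE 0.06, adjusted p = 0.881, edgeR). Tlr8 averaged 218 ± 3.82 CPM in KO and 230 ± 3.64 CPM in WT libraries. Of this list of 12 genes, these 3 had groups that stood apart, or 25%, against 10.8% of all genes, with the KO values below. Tlr9 is also highly expressed by plasmacytoid dendritic cells and B cells. The summed level of 10 markers of dendritic cells was 106 to 111 CPM in KO and 114 to 126 CPM in WT libraries, with none of the 10 at 0 in all libraries. Most of that sum is Tcf4, at 83.9 ± 2.76 CPM in KO and 83.9 ± 3.57 CPM in WT libraries. The plasmacytoid marker Siglech was at 3.24, 1.80 and 3.12 CPM in KO libraries, against 5.05, 5.75 and 2.90 CPM in WT libraries. Ccr9 averaged 2.77 ± 1.16 CPM in KO and 5.27 ± 1.44 CPM in WT libraries, and Spib 3.51 ± 0.798 CPM in KO and 6.32 ± 2.03 CPM in WT libraries. All 3 had lower means in KO but overlapped, with log2 fold changes of -0.75, -0.92 and -0.85 and adjusted p-values of 0.9, 0.795 and 0.774 (edgeR). They had the smallest p of the 10 dendritic cell markers, of which 8 lay below and 2 above WT. Those above were Xcr1 and Cd209a, with log2 fold changes of 0.47 and 0.70 at low levels, 0.549 and 0.652 CPM on average in KO libraries. WT replicate 3, which had the highest Tlr9, had the lowest Siglech of the WT libraries. Of the B cell genes below, it had the lowest Cd79a and the highest Ms4a1 of the WT libraries. The summed level of 10 markers of B, T and NK cells was 88.1 to 122 CPM in KO and 117 to 179 CPM in WT libraries, also with none at 0 in all. Most of it is Cd4, at 95.5 ± 15.7 CPM in KO and 137 ± 29.9 CPM in WT libraries, while the T cell gene Cd3e averaged 0.128 CPM in KO and 0.0826 CPM in WT libraries. The B cell genes were low, with Ms4a1 at 0.476, 0.632 and 1.03 CPM in KO libraries, against 1.71, 1.52 and 2.19 CPM in WT libraries, without overlap (log2 fold change -1.36, adjusted p = 0.446, edgeR). Cd79a averaged 1.04 ± 0.453 CPM in KO and 2.08 ± 0.54 CPM in WT libraries. The part of such cells in the values of Tlr9 was not tested.

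At the output end, Ifnb1, the gene of interferon beta, had 1, 6 and 3 reads in KO libraries, against 4, 0 and 6 reads in WT libraries, too few for a comparison. The 4 listed interferon alpha genes, Ifna1, Ifna2, Ifna4 and Ifna5, were at 0 in every library. Log2 fold changes of the interferon receptor, its transducers and other IRFs ran from -0.20 to -0.01, with a median of -0.05. All 10 tested genes were below WT, and none stood apart. Among them Stat2 averaged 194 ± 31.6 CPM in KO and 223 ± 34.9 CPM in WT libraries, Irf1 98.5 ± 7.19 CPM in KO and 111 ± 14.8 CPM in WT libraries, and Irf8 had a log2 fold change of -0.08. Of the 13 interferon-induced genes, 10 were below WT, with a median of -0.11. Ccl5, a chemokine of activated macrophages, was at 37.4, 38.9 and 46.7 CPM in KO libraries, against 47.4, 48.2 and 76.5 CPM in WT libraries. These groups only just stood apart, with KO over WT at -0.49 on the log2 scale (SE 0.17, adjusted p = 0.881, edgeR). Mx1 and Cmpk2, with log2 fold changes of -0.15 and -0.21, overlapped. The spread between libraries that Irf7 showed bears on these lists as well, and was not removed from them.

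Among all genes tested, 14 were called, 2 higher and 12 lower in KO. Besides Tmem175 (log2 fold change -1.33, SE 0.07, adjusted p = 6.01e-05, edgeR) they included Lyz2, the gene that carries the Cre insertion, at 24326 ± 1578 CPM in KO and 45178 ± 4163 CPM in WT libraries. The 10 macrophage markers summed to 10310 to 11368 CPM in KO and 10226 to 11471 CPM in WT libraries, with none at 0 in all, so the defining markers of the labelled cell type were present. Neutrophil markers summed to 773 to 837 CPM in KO and 454 to 667 CPM in WT libraries, without overlap, and none of the 10 was at 0 in all. This sum is carried by S100a9, at 294 ± 14.1 CPM in KO and 193 ± 33.7 CPM in WT libraries, and S100a8, at 174 ± 9.49 CPM in KO and 108 ± 17.3 CPM in WT libraries (adjusted p = 0.152 and 0.0521, edgeR). Mpo and Elane, genes of early granulocytes, lay the other way, with Mpo at 7.94 ± 1.02 CPM in KO and 13.5 ± 3.52 CPM in WT libraries, without overlap, and Elane at 5.89 ± 1.06 CPM in KO and 8 ± 2.25 CPM in WT libraries. Markers of mast cells and basophils summed to 18.3 to 25.4 CPM in KO and 25.2 to 33.6 CPM in WT libraries, and those of erythroid cells and platelets to 99.6 to 149 CPM in KO and 124 to 206 CPM in WT libraries. In bulk RNA, fewer cells of a type and less RNA per cell cannot be told apart, and the part of these cells in the members' values was not tested.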

How the data were processed

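RNA from 3 KO and 3 WT cultures was made into libraries with a SMARTER mRNA-Seq kit, per the labels' protocols. The authors deposited 1 table of raw counts per Ensembl gene; HISAT2, featureCounts and GRCm38 are named in the submitters' processing notes. The sources used here give no versions, annotation release or strand setting. Symbols, exons and lengths came from GENCODE M21 (GRCm38), which matched 55240 of 55421 gene IDs, and promoters from RefSeq. No replicates matched within sampling noise, with chi-square per degree of freedom from 3.66 to 17.6.

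Genes were filtered by filterByExpr, scaled by TMM and tested with edgeR 4.0.16 (quasi-likelihood F test, genotype only, two-sided, R 4.3.3), with Benjamini-Hochberg adjustment over all 13588 genes tested and calls at an adjusted p under 0.05. Standard errors and 95% intervals were derived from the fold change and F. TPM used summed exon length. Ratios were tested by exact permutation of the 20 assignments of libraries. DESeq2 1.42.0 and limma 3.58.1 (voom) were alternatives, with other scalings and filters, each library left out, and a replicate block. The fit was tested on simulated data with the libraries' own depths. It recovered 59.4% of genes changed 1.5-fold, 88.1% at 2-fold and 99.5% at 4-fold. Every simulated gene took its spread from the trend over all genes, and more genes were changed than were called in the data. These shares may therefore be too high for the members. Recovery of genes that vary between libraries as much as Irf7, Ifih1 and Ddx58 was not tested separately. The members and lists were chosen with earlier results of these data known. Named genes are the 10 members, the 3 smallest p of each of the 9 pathway lists, except 1 gene that is not reported here, and Tmem175 and Lyz2. Atrip, Ifnb1, the interferon alpha genes, Isg15, Rsad2 and the single markers of other cell types were named after their values had been seen. Depth was 24179548 to 31542741 counts a library, and n = 3 a group limits the precision.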

Additional observations from a re-analysis of the deposited data

How the results depend on the processing

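No member was called under any of the 14 alternative fits, whose lowest adjusted p for a member was 0.691. Of 126 member fold changes in them, 111 kept their sign and 15 turned it, all within -0.28 to 0.16 on the log2 scale. Scaling by library totals, which put the median of all genes at 0.042, gave 0.02 for Ikbke, 0.02 for Irf3 and 0.001 for Mavs. Leaving out 1 library at a time gave -0.15 to 0.01 for Cgas, -0.08 to 0.11 for Tmem173, -0.06 to 0.01 for Ikbke, -0.05 to 0.01 for Irf3, -0.28 to 0.03 for Irf7 and -0.10 to 0.16 for Ddx58. It gave -0.26 to 0.07 for the log2 difference of the Irf7 to Irf3 ratio and -0.01 to 0.16 for that of Tmem173 to Mavs. The count of genes called over the table was 14 in edgeR, 40 in the DESeq2 Wald test, 151 without a filter on low counts, 5 at a mean of at least 10 CPM and 4 to 12 with 1 library left out; the cause was not tested. A fit with the replicate block called 17 genes and 0 members. Deviations of same-numbered KO and WT libraries correlated at 0.057, -0.123 and 0.0388, and not every library did best with its own number, so the numbers are not taken to pair the libraries. With 3 libraries a group, the intervals of Irf7 and Ddx58 leave room for differences of 1.16-fold and 1.27-fold upward, or to 0.72-fold and 0.81-fold downward. The wells of a genotype may share an animal.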
